A study of Mus musculus with 6 samples.

Results

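Protein kinase A (PKA), the transcription factor CREB and their coactivators carry cyclic AMP signals from the cell surface to the genome, and the 10 genes described here encode the core of that route. They were taken by name from the gene table of the medial prefrontal cortex (mPFC): the catalytic subunit genes Prkaca and Prkacb, the regulatory subunit genes Prkar1a, Prkar1b, Prkar2a and Prkar2b, the CREB family genes Creb1 and Crem, and the coactivator genes Crtc1 and Crtc2. All 10 were among the 31763 genes of the table, and all 10 passed the filter on low counts. The morphine group comprised 3 samples from male C57BL/6J mice given morphine hydrochloride (10 mg/kg, intraperitoneally) over 5 days of training for conditioned place preference, and the saline group comprised 3 samples from male C57BL/6J mice given normal saline (10 ml/kg, intraperitoneally) over the same training. All mice were 8 to 10 weeks old, were then kept without drug in the home cage, and were killed on day 13, straight after a retrieval test in the apparatus, so both groups had explored the chambers shortly before tissue was taken. The sources used here do not say whether a sample was 1 mouse or a pool, and a p-value therefore speaks only to the spread among these 6 samples, which may be technical.

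In resting cells, PKA is held inactive as a complex of a pair of regulatory and a pair of catalytic subunits. Cyclic AMP binds the regulatory subunits and frees the catalytic ones, which phosphorylate ion channels, receptors and, in the nucleus, CREB. CREB bound to its cyclic AMP response element (CRE) then recruits coactivators, among them the CRTC proteins, which salt-inducible kinases hold in the cytoplasm until they are dephosphorylated. Opioid receptors lower cyclic AMP when they are activated, and adaptation of this pathway after repeated opioid exposure is a classic subject of addiction research.

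Positions of the whole genes, exons and introns included, are those of the GENCODE annotation of GRCm38. Of the catalytic subunit genes, Prkaca spans chr8:83972993-83996443 on the plus strand and Prkacb spans chr3:146729574-146812990 on the minus strand. Of the regulatory subunit genes, Prkar1a lies at chr11:109649405-109669656 and Prkar2a at chr9:108689314-108750436 on the plus strand, and Prkar1b at chr5:139017306-139150001 and Prkar2b at chr12:31958476-32061296 on the minus strand. Creb1 lies at chr1:64532645-64604548 (plus). Crtc1 lies at chr8:70382355-70439579 (minus), and Crtc2 at chr3:90254163-90264125 (plus).

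The CRE is itself found at the start of some of these genes. The full element TGACGTCA, a palindrome, and its short form TGACG, read on both strands (the reverse strand reads CGTCA), were searched in windows reaching from 250 bases before to 50 bases after each start annotated by RefSeq (GRCm38.p6). Such windows were given for 8 of the 10 genes, but not for Crtc2 and Crem. The full element lay in windows of Prkar1a, 1 of these 8 genes, and in windows of 549 of all 27025 genes (1.79% of all 32851 windows). The short element, which the full one contains on each strand, lay in windows of 5 of the 8 genes (Prkaca, Prkacb, Prkar1a, Prkar1b and Prkar2a) and in windows of 6228 of all 27025 genes. A gene can have several windows, and counted by window it lay in 7 of 21, or 33.3%, against 20.8% of all windows. Windows of a gene can overlap, so a site can count more than once. This holds for the Prkar1a windows chr11:109650612-109650911 and chr11:109650699-109650998, which share the full element. Prkar2b, Creb1 and Crtc1 had neither element. These matches are a description of the letters and not of binding. The Prkar1a window is shown because it holds the full element, which begins 49 bases before the start site (chr11:109650699-109650998, plus strand, only the full element in capitals):
Prkar1a: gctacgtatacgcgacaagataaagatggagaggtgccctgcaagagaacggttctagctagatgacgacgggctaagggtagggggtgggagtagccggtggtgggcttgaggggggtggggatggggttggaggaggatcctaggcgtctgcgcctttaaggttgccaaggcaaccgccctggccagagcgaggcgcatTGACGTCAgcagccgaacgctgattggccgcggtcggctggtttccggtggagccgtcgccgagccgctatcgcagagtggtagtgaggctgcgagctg
For the other genes with a match, 45 bases are shown around the short element nearest to a start, in capitals as TGACG or, on the opposite strand, CGTCA (Prkaca chr8:83972952-83972996, plus strand; Prkacb chr3:146813024-146813068, minus strand; Prkar1b chr5:139150026-139150070, minus strand; Prkar2a chr9:108692119-108692163, plus strand):
Prkaca: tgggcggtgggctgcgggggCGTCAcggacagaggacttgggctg
Prkacb: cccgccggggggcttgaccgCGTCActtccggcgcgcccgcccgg
Prkar1b: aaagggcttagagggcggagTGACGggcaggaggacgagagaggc
Prkar2a: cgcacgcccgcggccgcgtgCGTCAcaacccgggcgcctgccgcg

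Type I regulatory subunits were the most abundant PKA transcripts of the mPFC, and the levels of a gene varied little between libraries, with coefficients of variation of CPM from 2.21% for Prkar2b to 11.3% for Crem. Levels between genes are given as FPKM, the authors' counts divided by gene length and library depth, where the length of each of the 10 genes equalled the union of its annotated exons. Prkar1b, the neuron-enriched type I beta subunit, averaged 182 FPKM over the 6 libraries, and Prkar1a, the widely expressed type I alpha subunit, averaged 161 FPKM. The ranges of this pair overlapped, at 158 to 199 FPKM for Prkar1b and 152 to 165 FPKM for Prkar1a. The type II subunits, which bind most anchoring proteins tightly, were far lower, with Prkar2b at 18.3 FPKM and Prkar2a at 10.9 FPKM.
The catalytic subunits lay between these classes. Prkacb averaged 71.6 FPKM and Prkaca 65.3 FPKM, and their ranges overlapped at 67.8 to 74.4 FPKM and 61.2 to 69.2 FPKM. The transcription factors and coactivators were lower than the catalytic subunits. Crtc1, the main neuronal coactivator, averaged 16.7 FPKM, Creb1 averaged 7.42 FPKM, Crtc2 averaged 3.52 FPKM and Crem averaged 3.19 FPKM. The range of Prkar2b, 17.5 to 18.9 FPKM, lay just above that of Crtc1, 15.3 to 17.4 FPKM. Crtc2 and Crem could not be ordered, with ranges of 3.00 to 3.99 and 2.83 to 3.84 FPKM. The exon union of Creb1 spans 13742 bases and that of Prkaca 2488 bases, so a transcript that uses only part of its annotated exons reads lower on this scale.

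**Figure D1:**
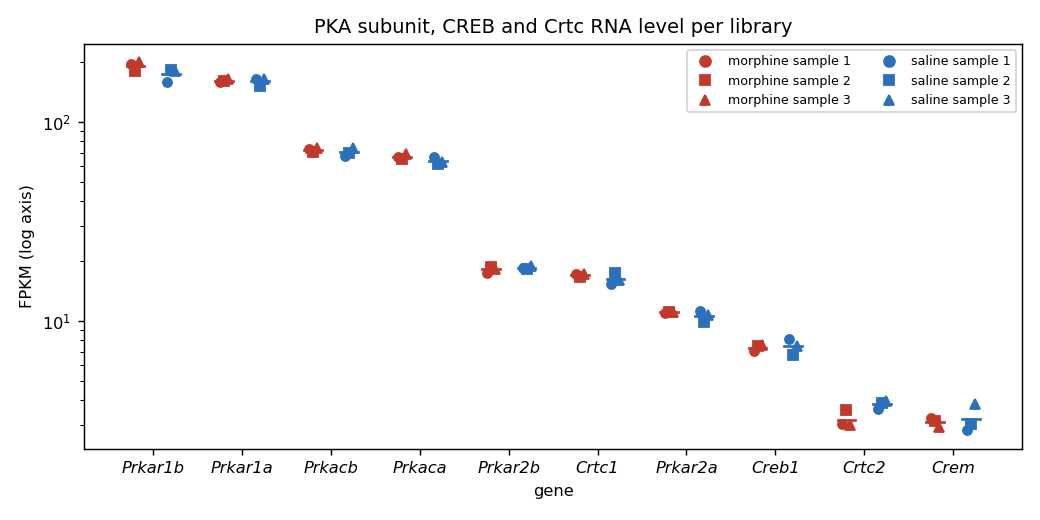
FPKM of the 10 genes in each library on a log axis, ordered by mean level, with morphine in red left of saline in blue and a short line at each group mean. Levels span from Prkar1b at 158 to 199 FPKM down to Crem at 2.83 to 3.84 FPKM, and for every gene but Crtc2 the libraries of both groups overlap.

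The question for each gene was whether its RNA differed between the morphine and the saline group. None of the 10 genes passed an adjusted p of 0.05, and 1 of them, Crtc2, was lower in morphine at an unadjusted p under 0.05. In edgeR's quasi-likelihood test 0 of 18970 genes passed the adjusted threshold (0%), while 7.72% of all genes had an unadjusted p under 0.05, so 1 of 10 is near the background. DESeq2 gave 16 genes below that adjusted threshold (0.0935% of those with an adjusted p), 0 of them among the 10, and 5.14% of genes below the unadjusted one, among them 1 of the 10, Prkar1b. The median log2 fold change was 0.04 over the 10 genes, with 7 above and 3 below 0, and -0.01 over all genes tested. Fold changes are morphine over saline, and CPM are counts scaled to a common library size with TMM factors.
One library, saline sample 1, was unlike the rest. The summed level of 15 olfactory bulb markers, a list written after this library had been noticed, was 29.8 to 31.7 FPKM in the morphine samples, against 141 FPKM in saline sample 1 and 28.9 to 29.4 FPKM in saline samples 2 and 3. There, 14 of the 15 markers were over 2 times the highest other library. Excitatory neuron markers, the defining cells of the labelled tissue, were lowest there, and their summed level over 6 genes was 695 to 733 FPKM in morphine and 609 to 706 FPKM in saline. No marker on either list was at 0 in all libraries. Values without saline sample 1 are therefore given beside results that it moves by over 1.5 times or whose call it changes. Without it, 1 of the 10 genes was higher (Prkaca) and 1 lower (Crtc2) at the unadjusted threshold, where 4.14% of all genes were higher, 7.53% lower and 11.7% either, and 0.996% of all genes but 0 of the 10 passed the adjusted one. In bulk tissue, fewer cells of a type and less RNA per cell cannot be told apart.

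**Figure D2:**
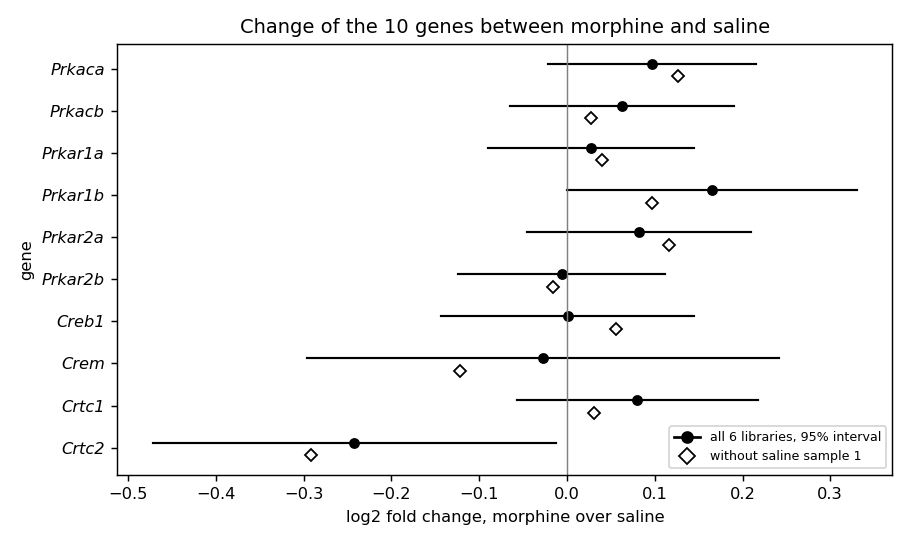
Log2 fold change of each gene, morphine over saline, from edgeR with its 95% interval (filled circles, 6 libraries) and the same estimate without saline sample 1 (open diamonds). All intervals but that of Crtc2 reach across 0, and Crtc2 lies at -0.24 with all libraries and at -0.29 without saline sample 1.

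Catalytic subunit RNA lay slightly above saline in morphine, within the spread of the libraries. Prkaca, which encodes the widely expressed catalytic alpha subunit, had 169, 160 and 175 CPM in morphine samples 1 to 3, against 163, 153 and 156 CPM in saline samples 1 to 3. Morphine sample 2 lay below saline sample 1, so the groups overlapped. The log2 fold change of Prkaca was 0.10 (standard error, SE, 0.05, unadjusted p = 0.099, adjusted p = 0.68 in edgeR). Leaving out saline sample 1 gave 0.13, at an unadjusted p of 0.026 and an adjusted p of 0.33 in edgeR, and without morphine sample 2 it was also 0.13, at an unadjusted p of 0.038.
Prkacb, which encodes the catalytic beta subunit abundant in brain, had 653, 612 and 664 CPM in morphine, against 584, 617 and 646 CPM in saline. Here saline sample 1 was the lowest library, and morphine sample 2 lay below saline samples 2 and 3. Its log2 fold change was 0.06 (SE 0.06, adjusted p = 0.78 in edgeR), and 0.03 without saline sample 1 (adjusted p = 0.89 in edgeR). The 95% interval of the fold allows 0.985 to 1.16 for Prkaca and 0.956 to 1.14 for Prkacb.
The balance between the catalytic genes did not separate the groups. The ratio of Prkacb to Prkaca FPKM was 1.10, 1.08 and 1.07 in morphine samples 1 to 3, against 1.02, 1.14 and 1.18 in saline samples 1 to 3. Saline spanned the narrower range of morphine on both sides.

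Among the regulatory subunits Prkar1b was furthest above saline, but it missed the unadjusted threshold. It had 757, 680 and 772 CPM in morphine samples 1 to 3, against 591, 697 and 682 CPM in saline samples 1 to 3. The lowest library was saline sample 1, and morphine sample 2 lay just below saline samples 2 and 3. The log2 fold change was 0.17 (SE 0.07, unadjusted p = 0.0503, adjusted p = 0.64 in edgeR), and the 95% interval of the fold ran from 0.9998 to 1.258. DESeq2 gave 0.17 at an unadjusted p of 0.029 and an adjusted p of 0.79. Without saline sample 1 the log2 fold change was 0.10 at an unadjusted p of 0.10 and an adjusted p of 0.54 in edgeR, which moves it by over 1.5 times. When morphine sample 2 or saline sample 2 was left out, the unadjusted p of edgeR's quasi-likelihood test was 0.019 or 0.031, under the threshold. The excitatory neuron markers were at positive log2 fold changes in 6 of 6 genes, with 2 of 6 higher at an unadjusted p under 0.05, where 2.77% of all genes were. Their median was 0.17, and 0.09 without saline sample 1, and their part in the Prkar1b values was not tested.
The noncoding Gm15672, which shares 2426 bases and the strand of Prkar1b at its start, had 28 to 45 counts in morphine and 45 to 65 counts in saline, against at least 12316 counts for Prkar1b in each library.
Prkar1a, the other type I gene, had 695, 685 and 725 CPM in morphine, against 699, 658 and 708 CPM in saline. The groups covered nearly the same range, and its log2 fold change was 0.03 (SE 0.05, adjusted p = 0.90 in edgeR). The gene with the full CRE at its start was thus within 0.939 to 1.11 times its saline level by the 95% interval.
The type II genes showed no difference beyond their spread. Prkar2a, type II alpha, had 71.1, 70.3 and 72.4 CPM in morphine, against 70.3, 63.4 and 68.3 CPM in saline. Morphine sample 2 and saline sample 1 were level, and the other saline libraries lay below all morphine libraries. Its log2 fold change was 0.08 (SE 0.06, adjusted p = 0.72 in edgeR).
Prkar2b, type II beta, an isoform prominent in brain, had 64.8, 67.6 and 68.3 CPM in morphine, against 66.1, 66.7 and 68.8 CPM in saline. It varied least of the 10 genes, with a coefficient of variation of 2.21% over the 6 libraries. Its log2 fold change was -0.01 (SE 0.05, adjusted p = 0.98 in edgeR), with a 95% interval of the fold from 0.918 to 1.08. The log2 fold change was -0.02 without saline sample 1 (adjusted p = 0.95 in edgeR).

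Composition of the kinase was likewise close between the groups. The summed FPKM of the 4 regulatory genes was 2.73 ± 0.00556 times that of the catalytic genes in morphine and 2.70 ± 0.0746 times in saline (SD, n = 3). The narrow spread in morphine lay within the range of saline, of 2.62 to 2.76, where saline sample 1 was lowest. The share of Prkar1b in regulatory FPKM was 50.1 ± 1.297% in morphine and 47.7 ± 2.76% in saline (SD, n = 3). That of Prkar1a was 42.2 ± 0.957% in morphine and 44.2 ± 2.42% in saline (SD, n = 3). Both shares overlapped between the groups. Type I genes together had 12.4, 11.4 and 12.3 times the FPKM of type II genes in morphine samples 1 to 3, against 10.9, 11.9 and 11.6 times in saline samples 1 to 3. No PKA gene or ratio thus separated the groups, and these ratios were described without a test.

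CREB family RNA showed no difference larger than the spread between libraries. Creb1, which encodes CREB itself, had 98.6, 102 and 106 CPM in morphine, against 109, 93.4 and 104 CPM in saline. The highest and the lowest library were both saline, and the log2 fold change was 0.00 (SE 0.06, adjusted p = 0.9977 in edgeR). With saline sample 1, the highest library, left out, it was 0.06 (adjusted p = 0.77 in edgeR). The 95% interval of the fold was 0.906 to 1.11.
Crem encodes CRE modulators, activators as well as repressors, and its short repressor ICER is made from an internal promoter that CREB induces. The gene lies at chr18:3266048-3337748 on the minus strand. The table counts the whole gene, so ICER cannot be read apart from the longer forms. Crem had 19.6, 18.5 and 17.7 CPM in morphine, against 16.4, 18.01 and 22.6 CPM in saline. Saline held both extremes, and the log2 fold change was -0.03 (SE 0.12, adjusted p = 0.96 in edgeR). It was -0.12 without saline sample 1, the lowest library (adjusted p = 0.71 in edgeR). With 336 to 442 counts per library its interval was wide, from 0.815 to 1.18 in fold. Gm6225, a noncoding gene on the opposite strand, overlaps the start of Crem by 1069 bases and had 85 to 120 counts per library. The ratio of Creb1 to Crem FPKM was 2.36 ± 0.199 in morphine and 2.35 ± 0.461 in saline (SD, n = 3).

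In edgeR, Crtc2 was the gene of the 10 with the lowest p, while in DESeq2 this was Prkar1b. Crtc2 was the only one of them whose groups did not overlap. Its protein is a CREB coactivator best known from liver, where it drives glucose production during fasting. It had 12.6, 14.5 and 12.5 CPM in morphine samples 1 to 3, against 14.5, 16.0 and 16.3 CPM in saline samples 1 to 3. Morphine sample 2, at 14.51 CPM, lay just below saline sample 1, at 14.54 CPM, while the remaining libraries were clearly apart. Groups did not overlap for 13.3% of all genes tested, with morphine lower for 7.32% and higher for 5.98%.
The log2 fold change of Crtc2 was -0.24 (SE 0.10, unadjusted p = 0.041, adjusted p = 0.63 in edgeR), with a 95% interval of the fold from 0.721 to 0.991. Lower genes at that unadjusted p made up 4.96% of all genes tested. The unadjusted p was 0.085 in DESeq2. It was 0.12 when morphine sample 1 was left out, 0.13 for morphine sample 3, 0.10 for saline sample 2 and 0.12 for saline sample 3, so the call needed each of these libraries. Without saline sample 1 the log2 fold change was -0.29, at an unadjusted p of 0.014 and an adjusted p of 0.26 in edgeR. Crtc2 had 228 to 340 counts per library, and at 228 counts the counting error alone is 6.62%.
Crtc1, which shuttles from synapse to nucleus in active neurons, went the other way within its spread. It had 196, 184 and 196 CPM in morphine, against 169, 196 and 180 CPM in saline. Saline sample 2 reached the morphine range while saline sample 1 was lowest, and the log2 fold change was 0.08 (SE 0.06, adjusted p = 0.75 in edgeR). Without saline sample 1 it was 0.03 (adjusted p = 0.87 in edgeR), and without saline sample 2 it was 0.14 (unadjusted p = 0.0498).
The ratio of Crtc1 to Crtc2 lay higher in the morphine libraries, and it was the only one of the computed ratios between these genes to separate the groups. Crtc1 had 5.69, 4.65 and 5.73 times the FPKM of Crtc2 in morphine samples 1 to 3, against 4.25, 4.47 and 4.05 times in saline samples 1 to 3. All 3 morphine libraries lay above all 3 saline libraries, morphine sample 2 only narrowly. The difference of mean log2 ratios was 0.33, and it ranged from 0.27 to 0.42 with any 1 library left out. The Crtc2 values enter this ratio, so it is no separate evidence, and it was not tested.
Crtc3, the third family member, had 22.0, 19.9 and 21.1 CPM in morphine, against 28.0, 23.9 and 22.4 CPM in saline. Its groups did not overlap either, and the log2 fold change was -0.24 (SE 0.10, unadjusted p = 0.037, adjusted p = 0.62 in edgeR). Saline sample 1 was the highest, and without it the log2 fold change was -0.14 at an unadjusted p of 0.14. As shares of summed Crtc FPKM, Crtc1 took 76.2 ± 1.263% in morphine and 71.9 ± 1.61% in saline, and Crtc2 took 14.3 ± 1.504% in morphine and 16.9 ± 0.751% in saline (SD, n = 3).

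**Figure D3:**
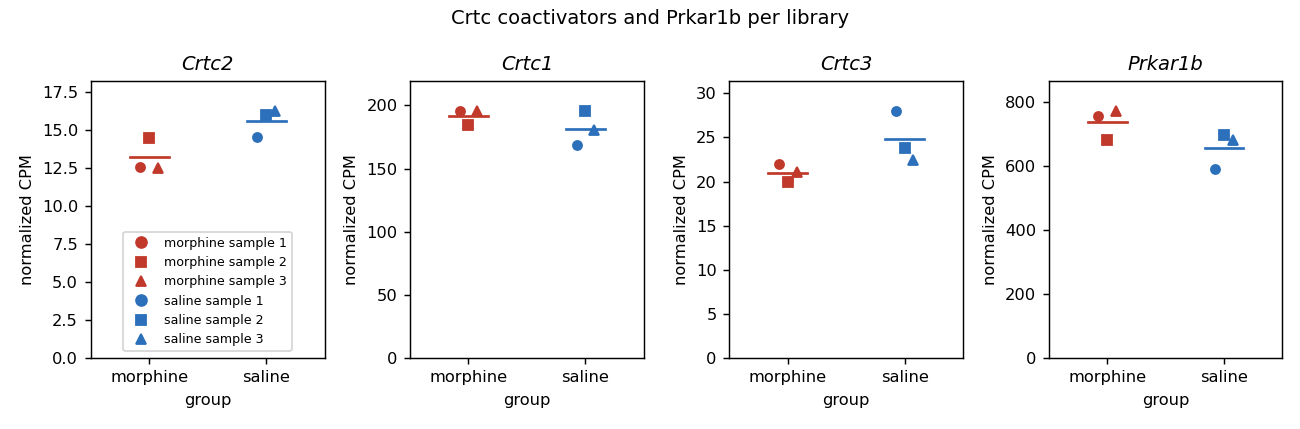
Normalized CPM of Crtc2, Crtc1, Crtc3 and Prkar1b in each library, with axes starting at 0, morphine in red left of saline in blue, and a line at each group mean. Crtc2 and Crtc3 have all morphine libraries below all saline libraries, by 14.51 against 14.54 CPM at the closest for Crtc2, while Crtc1 and Prkar1b overlap.

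**Figure D4:**
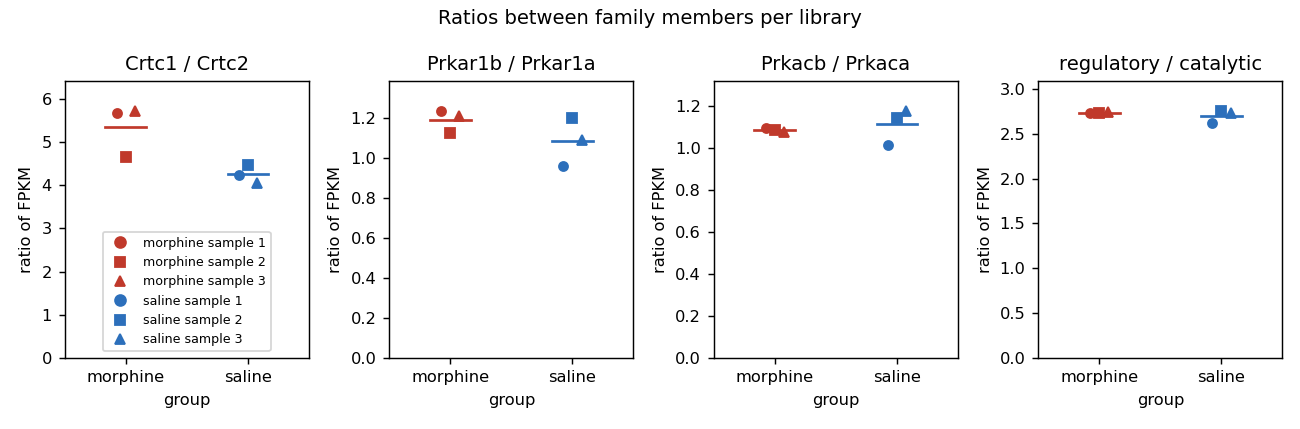
Ratios of FPKM per library for Crtc1 to Crtc2, Prkar1b to Prkar1a, Prkacb to Prkaca and summed regulatory to catalytic subunits, morphine in red left of saline in blue, with a line at each group mean. Only the first of these 4 ratios separates the groups, at 4.65 to 5.73 in morphine and 4.05 to 4.47 in saline.

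The 10 genes did not move as a block across the libraries. Over the 6 libraries, log2 CPM of Prkar1b followed Crtc1 (Pearson r = 0.92) and Prkacb (r = 0.91), and all 3 genes had their lowest value in saline sample 1. Prkaca followed Prkar2a (r = 0.84) and ran opposite to Crtc2 (r = -0.96). Creb1 and Crem were at r = -0.22. With 6 points that share library preparation and group, these are descriptions.
The genes whose pattern over the 6 libraries was most like that of Crtc2 were Dvl2, a Wnt signal transducer (r = 0.9986), Mpp5, a cell polarity scaffold (r = 0.996), and the predicted gene Gm42607 (r = 0.995). A likeness of r over 0.95 was reached by 171 tested genes. Dvl2 was with a log2 fold change of -0.27 (SE 0.10, adjusted p = 0.62 in edgeR).

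Around the kinase, proteins that place or restrain PKA were also near the background. Of 21 tested anchoring protein genes, 1 was higher and 0 were lower below the unadjusted threshold of edgeR, where 2.77% and 4.96% of all genes were, and 0 passed the adjusted threshold in edgeR or DESeq2. The higher one was Cbfa2t3, a transcriptional corepressor with an anchoring isoform, with 36.7, 37.5 and 36.7 CPM in morphine, against 28.8, 31.6 and 26.8 CPM in saline. Its groups stood well apart, with a log2 fold change of 0.35 (SE 0.08, adjusted p = 0.47 in edgeR), and without saline sample 1 it was 0.34 at an adjusted p of 0.042 in edgeR. Akap5, which anchors PKA at the postsynaptic density, was at 0.13 (adjusted p = 0.68 in edgeR), and at 0.06 without saline sample 1. The weakly expressed Akap2 was at -0.70 (adjusted p = 0.64 in edgeR) and Akap17b at -0.15 (adjusted p = 0.66 in edgeR). Without saline sample 1, 3 anchoring genes were lower at an unadjusted p under 0.05, Akap2, Akap8l and Akap17b, where 7.53% of all genes were. Without morphine sample 2, 2 were lower, and without saline sample 2, 2 were higher.
The genes of the heat-stable kinase inhibitors and of the related kinase Prkx gave 0 of 4 at an unadjusted p under 0.05 in edgeR. Of all genes, 7.72% were under that threshold. Pkia was at 0.05, Pkib at -0.18, Pkig at -0.08 and Prkx at -0.14 in log2 fold change. Pkib was at -0.10 and Pkig at -0.03 without saline sample 1.
Of 5 genes for phosphatase inhibitors under PKA control, 1 was higher at the unadjusted threshold and 0 were lower, where 2.77% and 4.96% of all genes were. The higher one was Ppp1r1b, which encodes DARPP-32, with 49.3, 45.8 and 46.5 CPM in morphine, against 30.5, 42.0 and 37.4 CPM in saline. All morphine libraries lay above all saline libraries, and saline sample 1 was far lowest. The log2 fold change was 0.37 (SE 0.10, unadjusted p = 0.0051, adjusted p = 0.58 in edgeR), and without saline sample 1 it was 0.25 at an unadjusted p of 0.0021. Of 7 markers of striatal neurons, the cells richest in DARPP-32, the summed level was 15.9 to 17.2 FPKM in morphine and 14.0 to 15.5 FPKM in saline, no marker was at 0 in all libraries, and their part in the Ppp1r1b values was not tested. Arpp19 was at 0.19, Ppp1r1a at 0.10 and Ensa at 0.07, none of them past the unadjusted threshold. Their log2 fold changes were smaller without saline sample 1, at 0.07 for Arpp19 and 0.04 for both Ppp1r1a and Ensa.

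Relatives, kinases and phosphatases of CREB and the CRTC proteins moved little. Of 18 tested CREB relatives and coactivators, Creb3 was higher and Crtc3 lower by the unadjusted p of edgeR, where 2.77% and 4.96% of all genes were. Of these 18, 0 passed the adjusted threshold in edgeR or DESeq2. Creb3, a membrane-bound relative, was at 0.20 (SE 0.07, adjusted p = 0.62 in edgeR). Atf1, the closest relative of Creb1, was at -0.20 (adjusted p = 0.67 in edgeR), and Crebl2 at 0.12 (adjusted p = 0.68 in edgeR).
Of 26 kinase and phosphatase genes, 4 were higher and 0 were lower by the unadjusted p of edgeR, where 2.77% and 4.96% of all genes were, and 0 passed the adjusted threshold in edgeR or DESeq2. Stk11, which encodes the kinase LKB1 that activates the salt-inducible kinases, had 49.4, 51.2 and 51.5 CPM in morphine, against 46.9, 45.2 and 45.2 CPM in saline. Its groups did not overlap, with a log2 fold change of 0.15 (SE 0.06, adjusted p = 0.62 in edgeR). The catalytic subunit genes of the phosphatases that remove phosphate from CRTC and CREB, Ppp2cb and the calcineurin gene Ppp3ca, were at 0.13 and 0.18, and the kinase gene Gsk3a was at 0.11. Ppp3ca was at 0.10 and Gsk3a at 0.09 without saline sample 1, and neither then passed the unadjusted threshold. The count of 4 was 2 in DESeq2, Ppp3ca and the kinase gene Camkk1 (unadjusted p = 0.022 and 0.047). Stk11, Ppp2cb and Gsk3a missed the threshold in DESeq2, at unadjusted p of 0.065, 0.069 and 0.079. Leaving out morphine sample 1, morphine sample 2, saline sample 1 or saline sample 2 also gave 2, and leaving out morphine sample 3 gave 0. Of the list, 1 gene was lower without saline sample 1, and 1 without saline sample 2.

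Among known CREB target genes more were lower in morphine than higher. Of 30 tested, 7 were lower and 3 were higher by the unadjusted p, where 4.96% and 2.77% of all genes were, and their median log2 fold change was -0.10. The adjusted threshold was passed by 0 in edgeR and by 5 in DESeq2, which were Nr4a1, Dusp1, Junb, Btg2 and Fos, the last named after its value was seen. The list was written with earlier results of these data known, so its count is not independent evidence. Without saline sample 1 the median was 0.02, with 7 lower and 2 higher, where 7.53% and 4.14% of all genes were. The adjusted p of each of these 5 genes was then under 0.05 in edgeR, at most 0.018 for Fos.
Nr4a1, an immediate early nuclear receptor gene, had 50.3, 59.2 and 52.6 CPM in morphine, against 82.4, 76.9 and 93.4 CPM in saline. The groups stood far apart, with a log2 fold change of -0.64 (SE 0.08, adjusted p = 0.25 in edgeR), while Creb1 and Prkacb were at 0.00 and 0.06. Dusp1 was at -0.78, Junb at -0.58 and Btg2 at -0.84 in log2 fold change. Also lower by the unadjusted p were Arc at -0.56 and Npas4 at -0.47 (adjusted p = 0.57 and 0.61 in edgeR). Leaving out saline sample 1 gave an adjusted p of 9.2e-06 for Arc and 0.25 for Npas4 in edgeR. The 3 higher targets were Irs2 at 0.21, Egr1 at 0.13 and Nr3c1 at 0.13 (adjusted p = 0.57, 0.62 and 0.62 in edgeR). Without saline sample 1, the 2 higher by the unadjusted p of edgeR were Irs2 at 0.18 and Nr4a2 at 0.57. Nr4a2 was at 0.21 with all libraries.
The short element lay in windows of 17 of the 22 target genes that had one, and the full element in windows of 4, against 6228 and 549 of all 27025 genes. Counted by window, the shares were 54.5% and 12.1%, against 20.8% and 1.79% of all windows. The list was made of known CREB targets, so these shares describe the list and not the activity of CREB in these samples. The Nr4a1 window is shown as the target with the lowest p (chr15:101266596-101266895, plus strand). It holds no full element and 4 short elements, in capitals, which begin 233, 213, 69 and 40 bases before the start site:
Nr4a1: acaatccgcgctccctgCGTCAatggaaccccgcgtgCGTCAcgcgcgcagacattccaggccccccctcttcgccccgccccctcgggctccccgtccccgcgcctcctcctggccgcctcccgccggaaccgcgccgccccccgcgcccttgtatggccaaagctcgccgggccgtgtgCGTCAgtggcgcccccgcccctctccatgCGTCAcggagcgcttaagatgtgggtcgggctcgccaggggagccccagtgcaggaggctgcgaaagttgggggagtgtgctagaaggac
RNA levels of the kinase, of CREB and of its coactivators say nothing of their phosphorylation or location, which were not measured here.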

How the data were processed

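RNA of the mPFC was sequenced as rRNA-depleted, directional libraries from 3 morphine and 3 saline samples. Raw counts per gene and FPKM were deposited by the authors. Build mm10 and the tools HTSeq 0.11.2, StringTie 1.3.3, HISAT2 2.1.0 and cutadapt 1.9.3 come from the submitters' processing notes. No source used here gives the strand setting for HTSeq. Library totals ran from 17984153 to 23529592 counts.

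Genes reaching 10 counts in 3 or more libraries (18970) were TMM-normalized, then compared by edgeR 4.0.16 (R 4.3.3; quasi-likelihood F test), morphine against saline, two-sided, with Benjamini-Hochberg adjustment over all of them. Each library was left out in turn. Further alternatives were limma 3.58.1 on log2(FPKM + 0.1) or log2(FPKM + 1), DESeq2 1.42.0, a block for the replicate number, RLE factors, and either no filter or a filter of 10 counts in all 6 libraries. The test was tried on simulated data. Of genes simulated at a fold of 1.25, 50% passed the unadjusted threshold and 18% the adjusted one, so small changes can be missed. At a fold of 1.5 these were 81.6% and 59.2%. In the data 0 genes passed the adjusted threshold of edgeR. Nr4a1, the gene of lowest p, had an adjusted p of 0.25 there at a fold of 0.642. The simulated adjusted shares therefore cannot be carried over to these libraries, where larger changes can be missed too. Replicates differed by 2.91 to 14.7 times sampling noise (chi-square per degree of freedom), so none was counted as a duplicate. Loci come from GENCODE M21 (GRCm38) and promoter windows from RefSeq.

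The members and lists were chosen with earlier results of these data known. The text names all 10 genes, each pathway list's leading genes by p (4 at most), the 3 genes most correlated with the gene of lowest p, and overlapping genes. Names outside this rule are Fos, Arc, Npas4, Akap8l, Irs2, Egr1, Nr3c1, Nr4a2 and Camkk1.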

Additional observations from a re-analysis of the deposited data

How the results depend on the processing

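The direction of Crtc2 was the same in all 14 alternatives, with log2 fold changes from -0.31 to -0.20, and 8 of the 14 kept it under an unadjusted p of 0.05. Its adjusted p ranged from 0.26 to 0.98. Of the 10 genes, 1 was under an unadjusted p of 0.05 in edgeR, against 2 with RLE factors, 0 to 3 with any 1 library left out and 2 in DESeq2 without saline sample 1, an alternative added after the data were seen. Prkar1b was added with RLE factors. Over all genes, calls at an adjusted p under 0.05 numbered 0 in edgeR, 16 in DESeq2, 279 with no filter, 0 to 186 with any 1 library left out and 94 in DESeq2 without saline sample 1. Calls at an unadjusted p under 0.05 numbered 1465 in edgeR, 974 in DESeq2, 2499 with no filter, where more genes were tested, and 748 to 2179 with any 1 library left out. Other causes were not tested. Samples with the same replicate number did not deviate together (r = 0.02, 0.00 and -0.02 for numbers 1 to 3). Unlike numbers gave r from -0.03 to 0.04. With 3 samples per group, this check cannot tell whether same-numbered samples share more than a number. With the replicate number as a block, 1315 genes had an unadjusted p under 0.05, Crtc2 was at -0.24 (unadjusted p = 0.048 in edgeR), and 0 of the 26 kinase and phosphatase genes were higher by the unadjusted p, against 4 without the block.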
